A study of Homo sapiens with 12 samples.

Results

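The SLCO genes encode the organic anion transporting polypeptides, membrane carriers that bring bile acids, bilirubin, thyroid hormones, steroid sulfates, prostaglandins and many drugs into cells. The family was followed through 10 listed members, SLCO1A2, SLCO1B1, SLCO1B3, SLCO1C1, SLCO2A1, SLCO2B1, SLCO3A1, SLCO4A1, SLCO4C1 and SLCO5A1, and all 10 were found among the 18404 genes measured. A member was represented by its brightest probe set with a single gene symbol. The family was chosen by its SLCO4C1 values in HIF-2α knockdown, which had been seen to lie above wild type, so those values are given as a description and nothing is concluded from a test of them.

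The samples were tumour spheroids grown in stirred flasks from HepG2, an established human liver cancer cell line, and harvested at 10 days. Cells with HIF-1α knockdown, cells with HIF-2α knockdown and wild type cells each gave 4 spheroid experiments and 4 arrays. The amplification kit was one applied to 250 microdissected cells, and the arrays were from Affymetrix. The sample labels of both knockdowns carry the letters sh, a usual short form for short hairpin RNA. Beyond that, the sources used here do not say how the knockdowns were made. Nor do they say whether a knockdown line was a single clone, or whether wild type cells held any construct. HIF-1α and HIF-2α are subunits of the transcription factors that act when oxygen is short, and the design compares the 3 genotypes with each other.

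In the liver, SLCO1B1, SLCO1B3 and SLCO2B1 are the carriers of the blood-facing hepatocyte membrane. Tumours can also make a shorter SLCO1B3 transcript from an internal start, which is known to respond to HIF-1α. SLCO4C1 is best known as a carrier of the kidney proximal tubule for thyroid hormone, digoxin and uraemic toxins, and SLCO4A1 is a widely expressed carrier of thyroid hormone and estrone sulfate.

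All values are log2 probe set values, so a step of 1 is a doubling. HIF1A, which encodes HIF-1α, was lower in HIF-1α knockdown than in wild type by a log2 difference of -1.23 (SE 0.15, limma adjusted p = 0.00241), and EPAS1, which encodes HIF-2α, was lower in HIF-2α knockdown by -1.12 (SE 0.09, adjusted p = 0.000206). On the first principal component of all genes, replicate 2 of HIF-2α knockdown lay at 25.3, against -11.8 to 3.26 for the other arrays. The floor of an array, its 0.1 percentile over all probe sets, was raised on 3 arrays, HIF-2α knockdown replicate 4 and wild type replicates 1 and 2, at 6.33 to 6.35 against 6.11 to 6.23 on the other 9. Hepatocyte markers were bright, with array means of the 14 measured markers from 12.12 to 12.43 in HIF-1α knockdown, 12.36 to 12.98 in HIF-2α knockdown and 12.57 to 13.04 in wild type.

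Upstream sequences are shown for SLCO4C1, the member that varied most, and for SLCO1B3 and SLCO1B1, hepatocyte carriers whose upstream sequences resemble each other. They are the 250 bases before the RefSeq gene start in GRCh38.p14, read in the direction of the gene, at chr5:102296285-102296534 on the minus strand for SLCO4C1, and on the plus strand at chr12:20810455-20810704 for SLCO1B3 and chr12:21130944-21131193 for SLCO1B1. Capitals would mark ACGTG or GCGTG, core letters of hypoxia response elements, on either strand, and none of the 3 windows held either.
SLCO4C1: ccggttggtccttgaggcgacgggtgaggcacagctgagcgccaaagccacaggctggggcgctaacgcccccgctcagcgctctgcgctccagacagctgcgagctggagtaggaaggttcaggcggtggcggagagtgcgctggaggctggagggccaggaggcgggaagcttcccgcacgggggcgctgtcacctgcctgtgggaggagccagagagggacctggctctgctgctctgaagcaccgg
SLCO1B3: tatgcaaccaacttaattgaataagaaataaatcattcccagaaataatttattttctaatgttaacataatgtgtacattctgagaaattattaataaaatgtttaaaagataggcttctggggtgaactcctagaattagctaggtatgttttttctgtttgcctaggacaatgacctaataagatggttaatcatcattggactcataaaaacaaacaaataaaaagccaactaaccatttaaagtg
SLCO1B1: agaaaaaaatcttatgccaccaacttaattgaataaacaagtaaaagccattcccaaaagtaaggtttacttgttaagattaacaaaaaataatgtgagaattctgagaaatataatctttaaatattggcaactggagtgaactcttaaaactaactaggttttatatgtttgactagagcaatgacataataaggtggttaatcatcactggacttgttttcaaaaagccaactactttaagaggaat

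The SLCO4C1 window was rich in G and C, at 69.2%, against 28.4% for SLCO1B3 and 29.2% for SLCO1B1. Of all 35116 promoter windows in the RefSeq table, 43.2% held ACGTG or GCGTG. The SLCO1B3 and SLCO1B1 windows were 83.5% identical over 224 aligned columns, counted without gaps. Counted the same way, the SLCO4C1 and SLCO1B3 windows were 57.1% identical over 210 columns. The table matched 6 of the 10 members with 9 windows, of which 2 held ACGTG or GCGTG (1 window each of SLCO1A2 and SLCO3A1). SLCO1C1, SLCO2A1, SLCO4A1 and SLCO5A1 were not matched. A match of letters is a description and shows no binding, and the internal start of the tumour transcript of SLCO1B3 lies outside the window shown.

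**Figure D1:**
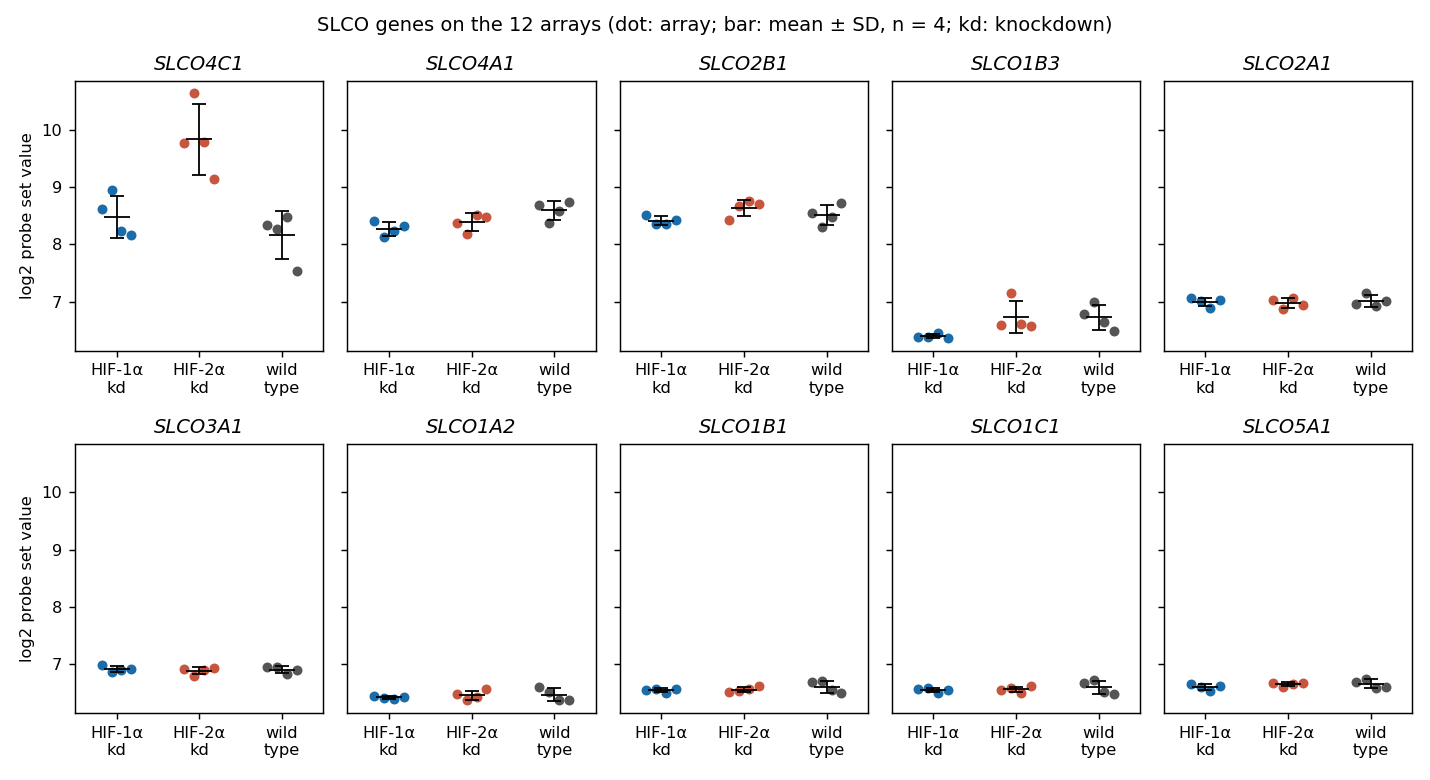
Log2 probe set values (vertical axis) of the 10 SLCO genes on the 12 arrays, in HIF-1α knockdown, HIF-2α knockdown and wild type; dots are arrays and bars are the mean ± SD of 4 arrays. SLCO4C1 lies between 9.13 and 10.64 in HIF-2α knockdown, against 7.54 to 8.48 in wild type, and the 6 genes from SLCO2A1 to SLCO5A1 stay between 6.38 and 7.15 on all arrays.

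SLCO4C1 was the member that varied most. In HIF-2α knockdown its log2 values were 9.77, 10.64, 9.79 and 9.13 in replicates 1 to 4. In HIF-1α knockdown they were 8.61, 8.94, 8.23 and 8.16, and in wild type 8.33, 8.28, 8.48 and 7.54. All 4 HIF-2α knockdown arrays lay above all 8 others, while the HIF-1α knockdown and wild type arrays overlapped. The means were 9.83 ± 0.62 in HIF-2α knockdown, 8.48 ± 0.37 in HIF-1α knockdown and 8.16 ± 0.42 in wild type (SD, n = 4 each), a log2 difference of 1.68 between HIF-2α knockdown and wild type, which is 3.19-fold, and of 1.35 between HIF-2α knockdown and HIF-1α knockdown, which is 2.54-fold. These differences describe the values on which the family was selected.

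The comparison of SLCO4C1 without HIF-2α knockdown arrays is HIF-1α knockdown against wild type. Its log2 difference was 0.33 (SE 0.28, 95% interval -0.28 to 0.93, limma adjusted p = 0.701). The wild type arrays took part in the choice of the family, so this comparison is not independent of it. The upper end of that interval is 1.91-fold and its lower end is below 0, so neither a rise nor its absence is shown. The wide interval follows from the spread between arrays: the within-group SD of SLCO4C1 was 0.480, larger than that of 99.9% of genes, whose median was 0.102. Single arrays carried part of it. Without HIF-2α knockdown replicate 2, the array that stood apart, the HIF-2α knockdown mean was 9.56 ± 0.37 (SD, n = 3) and the log2 difference from wild type 1.41. Without wild type replicate 4, the lowest array, the wild type mean was 8.36 ± 0.11 (SD, n = 3) and the difference 1.47. Without the 3 arrays of raised floor the difference was 2.06.

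A second probe set annotated to SLCO4C1 gave a dim signal. Its values were 6.70, 6.86, 6.59 and 6.77 in HIF-2α knockdown, 6.65, 6.68, 6.50 and 6.59 in HIF-1α knockdown, and 6.65, 6.67, 6.62 and 6.44 in wild type. The groups overlapped, and the log2 difference between HIF-2α knockdown and wild type was 0.14, so the 2 probe sets of the gene disagree in size. Averaging them gave a difference of 0.91 in place of 1.68. The sources used here do not say which transcripts each probe set reads.

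The genes beside SLCO4C1 in the RefSeq order did not move with it past the test. Between HIF-2α knockdown and wild type the log2 differences were -0.01 for ST8SIA4, 0.15 for CHD1 and -0.07 for FAM174A on one side. On the other side they were -0.02 for SLCO6A1, -0.01 for PAM and 0.13 for GIN1, with adjusted p from 0.54 to 0.984 over the 6 genes. SLCO6A1, the family member next to SLCO4C1 and outside the 10 listed genes, is known from testis, and its values lay between 6.35 and 6.66 on the 12 arrays.

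The genes whose pattern over the 12 arrays was most like that of SLCO4C1 were IQCK (Pearson r = 0.965), RNFT1 (0.940), OPN3 (0.937), AP1S3 (0.935) and SLFN5 (0.933). The most opposite were ZMYND8 (-0.914), SLC4A11 (-0.907) and AFAP1 (-0.899). These correlations hold the difference between the groups and were picked from all genes, so they describe the arrays only. Without HIF-2α knockdown replicate 2 the same 5 genes had r from 0.902 to 0.942 over 11 arrays.

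SLCO4A1, the other member of the 4 subfamily followed here, gave a clear signal 1.92 to 2.62 above the array floors. Its log2 values were 8.41, 8.13, 8.23 and 8.32 in HIF-1α knockdown, 8.38, 8.17, 8.51 and 8.48 in HIF-2α knockdown, and 8.69, 8.36, 8.59 and 8.73 in wild type. Both knockdowns had lower means than wild type, and in each case the groups overlapped through wild type replicate 2, at 8.36. The log2 difference between HIF-1α knockdown and wild type was -0.32 (SE 0.09, 95% interval -0.52 to -0.12), with a limma adjusted p of 0.128, which is not a call. Between HIF-2α knockdown and wild type it was -0.21 (SE 0.09, adjusted p = 0.402), and between HIF-2α knockdown and HIF-1α knockdown 0.11 (SE 0.09, 95% interval -0.09 to 0.32, adjusted p = 0.737). The HIF-1α knockdown difference kept its sign whichever array was left out, from -0.40 to -0.27. It passed the threshold under array weights (-0.37, adjusted p = 0.0385) and with the replicate numbers as a block (adjusted p = 0.0367). Both settings also raised the number of calls over all genes in this comparison, and the replicate numbers were not taken to pair the arrays. Without HIF-2α knockdown replicate 2 the HIF-2α knockdown difference was -0.14.

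2 sets of genes were, like SLCO4A1, mostly lower on average in HIF-1α knockdown than in wild type. None of the 14 hepatocyte and HepG2 markers had a positive difference there, with a list median of -0.46 and the array ranges given above, and 1 of the 14, the fibrinogen chain FGB, was called lower. Of 29 cytosolic ribosomal protein genes, 1 had a positive difference, the list median was -0.46, and RPL11 alone was called, also lower. The median over all genes was 0.005. Their part in the SLCO4A1 difference was not tested. SLCO4A1-AS1, a long noncoding RNA of the opposite strand, gave log2 differences from wild type of -0.09 in HIF-1α knockdown (adjusted p = 0.653) and -0.11 in HIF-2α knockdown (adjusted p = 0.602).

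SLCO2B1, the liver and gut carrier of estrone sulfate and statins, was the one hepatocyte carrier of the family with a clear signal, 1.97 to 2.62 above the array floors. It had 8.43, 8.67, 8.75 and 8.70 in HIF-2α knockdown, 8.51, 8.35, 8.36 and 8.42 in HIF-1α knockdown, and 8.54, 8.31, 8.48 and 8.73 in wild type. Wild type spanned nearly the whole range of both knockdowns. The log2 difference between HIF-2α knockdown and HIF-1α knockdown was 0.23 (SE 0.09, adjusted p = 0.259). The differences from wild type were -0.10 in HIF-1α knockdown (SE 0.09, 95% interval -0.30 to 0.09, adjusted p = 0.702) and 0.12 in HIF-2α knockdown (SE 0.09, 95% interval -0.07 to 0.31, adjusted p = 0.662).

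SLCO1B3, a carrier of bilirubin conjugates and bile acids in hepatocytes, was dim but uneven. Its values were 6.38, 6.38, 6.45 and 6.37 in HIF-1α knockdown, 6.59, 7.15, 6.61 and 6.58 in HIF-2α knockdown, and 6.78, 6.99, 6.65 and 6.48 in wild type. All 4 HIF-1α knockdown arrays lay below all 8 others. They were only 0.14 to 0.29 above the floors of their arrays, against 0.375 to 0.65 in wild type. Measured from the floor they overlapped with HIF-2α knockdown, where replicate 4 was 0.23 above it. The log2 difference between HIF-1α knockdown and wild type was -0.33 (SE 0.12, 95% interval -0.60 to -0.06, limma adjusted p = 0.245), and between HIF-2α knockdown and HIF-1α knockdown 0.34 (SE 0.12, adjusted p = 0.216). Neither was called. The HIF-2α knockdown mean of 6.73 ± 0.28 was close to that of wild type, 6.72 ± 0.21 (SD, n = 4 each), a difference of 0.01 (SE 0.12, 95% interval -0.26 to 0.27, adjusted p = 0.991).

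The SLCO1B3 values rest on few arrays. Without replicate 2 the other 3 HIF-2α knockdown arrays averaged 6.59 ± 0.02 (SD, n = 3), and the difference between HIF-2α knockdown and HIF-1α knockdown was 0.20 in place of 0.34. Without the 3 arrays of raised floor, which include the 2 highest wild type arrays, the difference between HIF-1α knockdown and wild type was -0.17 (adjusted p = 0.693). Under array weights it was -0.36 with adjusted p = 0.0435, in a setting that also raised the number of calls over all genes. SLCO1B3 and SLCO1B1 are close relatives, and whether either probe set also picks up the other gene was not tested.

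**Figure D2:**
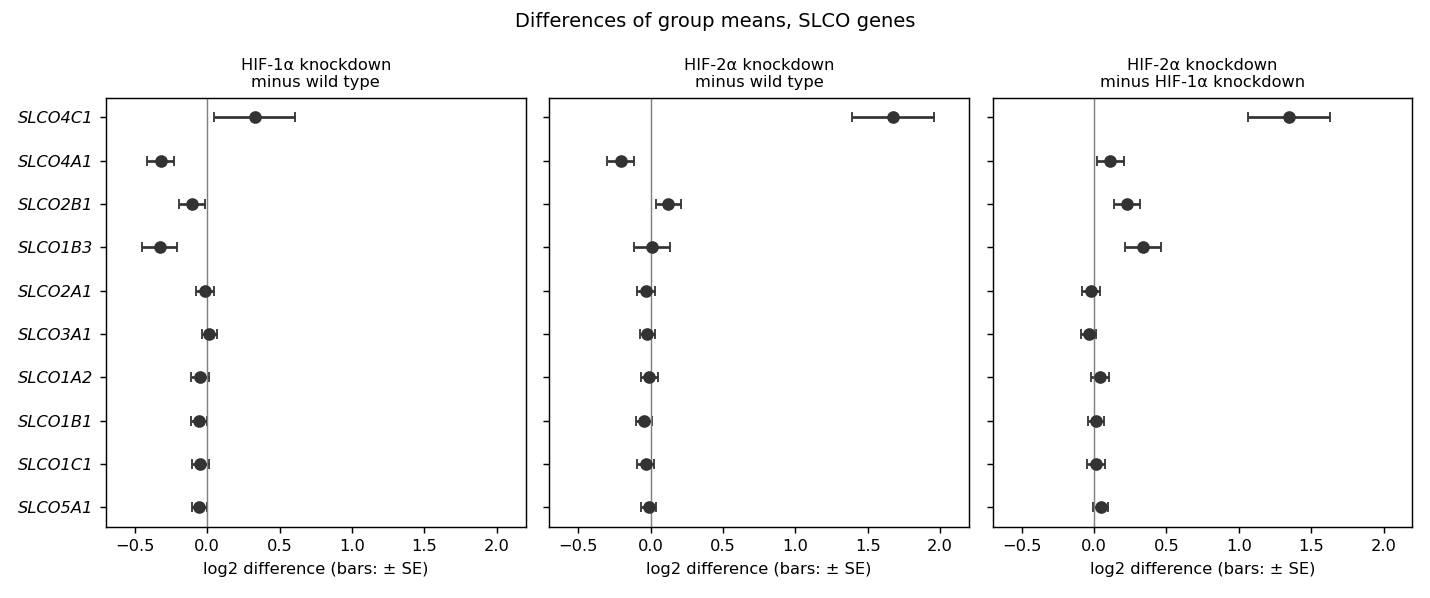
Log2 differences of group means (horizontal axis, bars ± SE) for the 10 SLCO genes in the 3 comparisons. SLCO4C1 stands at 1.68 and 1.35 in the 2 comparisons that hold the HIF-2α knockdown arrays on which it was selected; SLCO4A1 and SLCO1B3 lie at -0.32 and -0.33 in HIF-1α knockdown minus wild type.

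The other 6 members stayed low throughout. SLCO1B1, the main hepatocyte carrier of statins and bilirubin conjugates, had 6.55, 6.57, 6.50 and 6.58 in HIF-1α knockdown, 6.52, 6.54, 6.56 and 6.63 in HIF-2α knockdown, and 6.68, 6.70, 6.55 and 6.50 in wild type. These groups overlap throughout, and the value was 0.28 to 0.41 above the floor of its array. SLCO1A2, a bile acid and drug carrier of the blood-brain barrier and bile ducts, lay between 6.38 and 6.60, and SLCO1C1, the thyroxine carrier of the brain, between 6.48 and 6.73. SLCO5A1, whose cargo is little known, lay between 6.54 and 6.75. SLCO2A1, the prostaglandin carrier, had 7.06, 7.01, 6.90 and 7.02 in HIF-1α knockdown, 7.03, 6.88, 7.06 and 6.94 in HIF-2α knockdown, and 6.96, 7.15, 6.93 and 7.01 in wild type. It was 0.59 to 0.90 above the floor and did not separate the groups. SLCO3A1, a carrier of prostaglandins and thyroxine, was 0.59 to 0.79 above the floor, between 6.80 and 6.997. The 18 log2 differences of these 6 genes ran from -0.06 to 0.04, with 95% intervals inside -0.18 to 0.17 and adjusted p from 0.729 to 0.973. The deposited values carry no detection calls, so it cannot be said whether such a low level holds any signal of the gene, and a fall could not be seen where there was none.

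For 4 of the low members the floor of the array and the value moved together. SLCO1A2, SLCO1B1, SLCO1C1 and SLCO5A1 were each higher on all 3 arrays of raised floor than on any of the 9 others, a pattern that 9.819% of all genes share. SLCO1A2 had 6.52 to 6.60 on the arrays of raised floor and 6.38 to 6.48 on the others, and SLCO1B1 had 6.63 to 6.70 and 6.50 to 6.58. SLCO1B3 did not follow the floor over all arrays: its highest value, 7.15, was on an array with an unraised floor. Within wild type its highest values, 6.99 and 6.78, were on the arrays of raised floor.

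**Figure D3:**
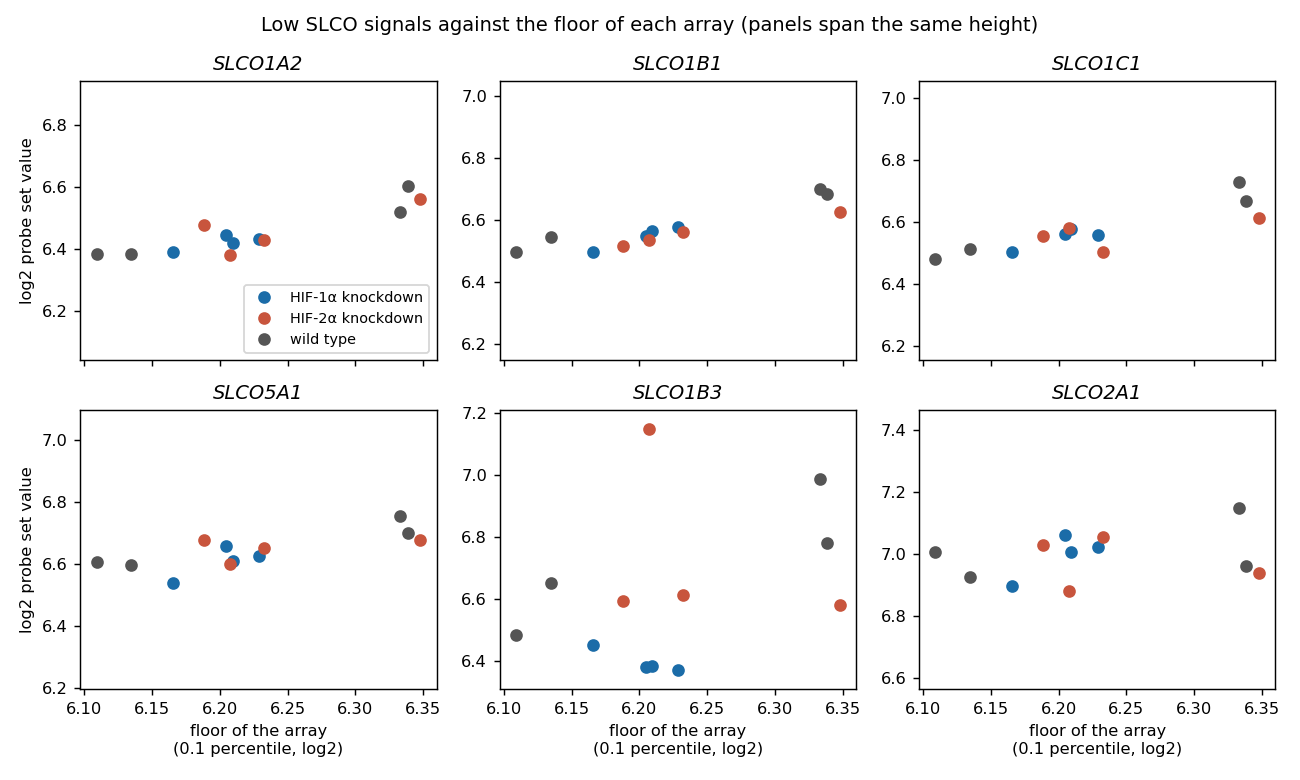
Log2 values of 6 dim SLCO genes (vertical axes, each of the same height) against the floor of the array, its 0.1 percentile (horizontal axis), coloured by group. The 3 arrays with floors of 6.33 to 6.35 hold the highest values of SLCO1A2, SLCO1B1, SLCO1C1 and SLCO5A1, while SLCO1B3 and SLCO2A1 do not order the arrays this way.

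Over the family, 0 of 10 members were called between HIF-1α knockdown and wild type, where 0.962% of all genes were. The wild type arrays of that comparison took part in the choice of SLCO4C1. The other comparisons hold the HIF-2α knockdown values on which SLCO4C1 was selected. The place of SLCO4C1 among the calls of the fit there supports nothing, and it is left out of the count. Of the other 9 members, 0 were called between HIF-2α knockdown and wild type, beside 0.788% of all genes, and 0 between HIF-2α knockdown and HIF-1α knockdown, beside 2.77%. An unadjusted limma p under 0.05 was found for 2 of the 9 between HIF-1α knockdown and wild type (SLCO1B3 and SLCO4A1), beside 13.2% of all genes. It was found for 1 of the 9 between HIF-2α knockdown and wild type (SLCO4A1), beside 12%, and for 2 of the 9 between the knockdowns (SLCO1B3 and SLCO2B1), beside 13.6%. Groups that did not overlap were found for 1 member between HIF-1α knockdown and wild type (SLCO1B3, lower), against 7.84% of all genes. With SLCO4C1 counted, which its selection fixes, they were found for 1 member between HIF-2α knockdown and wild type (SLCO4C1, higher), against 5.31%, and for 2 between HIF-2α knockdown and HIF-1α knockdown (SLCO4C1 and SLCO1B3, higher), against 9.08%. The median log2 difference of the 10 members was -0.05 between HIF-1α knockdown and wild type and -0.02 between HIF-2α knockdown and wild type, beside 0.005 and -0.01 over all genes. Between HIF-2α knockdown and HIF-1α knockdown it was 0.04, beside -0.01 over all genes. These medians include SLCO4C1. Each pair of these comparisons shares the 4 arrays of a group.

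**Figure D4:**
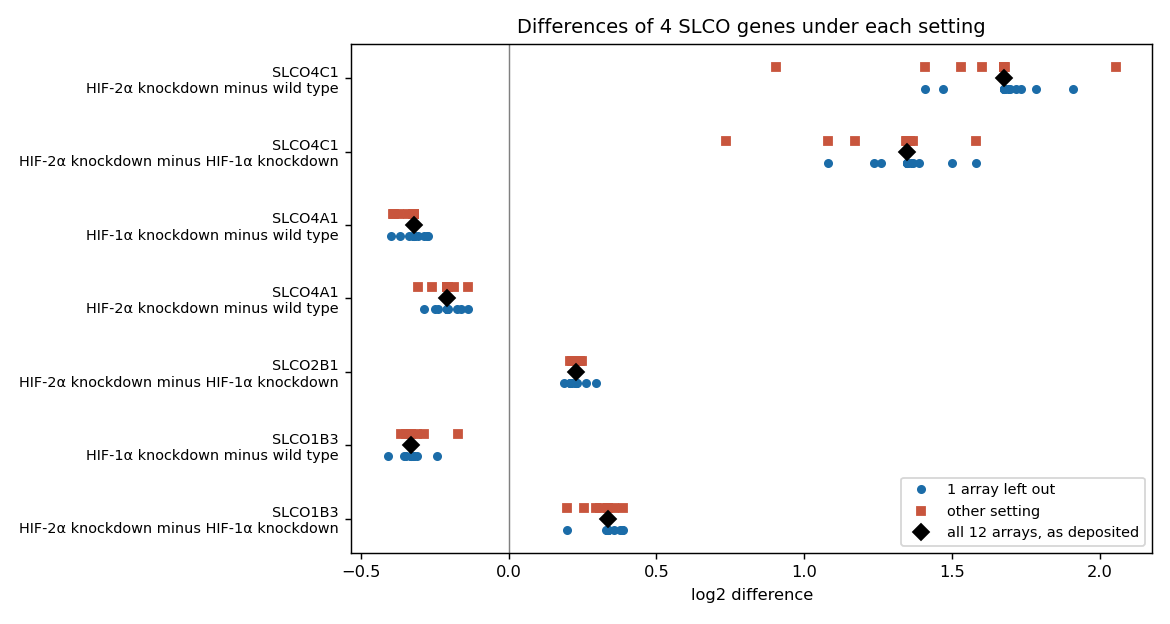
Log2 differences (horizontal axis) of 4 SLCO genes with all 12 arrays as deposited (diamonds), with 1 array left out (circles) and under the other settings tried (squares). SLCO4C1 in HIF-2α knockdown minus wild type ranges from 0.91, where its 2 probe sets are averaged, to 2.06, without the 3 arrays of raised floor; none of the differences drawn crosses 0.

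Other membrane carriers, and genes that make, modify or respond to cargo of SLCO proteins, were followed as lists. These and the other lists were drawn up with earlier results of these data known, so their calls are a description. Beside them, 0.962% of all genes were called between HIF-1α knockdown and wild type, 0.788% between HIF-2α knockdown and wild type, and 2.77% between the knockdowns. Of 13 measured carriers outside the family, listed apart from the ABC pumps, 1 was called. This was SLC51B, a subunit of the bile acid and steroid carrier of the basolateral membrane. It was lower in HIF-2α knockdown than in HIF-1α knockdown (log2 difference -1.06, SE 0.12, limma adjusted p = 0.000492). Against wild type it was higher in HIF-1α knockdown (means 9.03 and 8.25, log2 difference 0.78, SE 0.12, adjusted p = 0.0107). Its partner subunit SLC51A had a difference of -0.19 (adjusted p = 0.234), and SLC10A1, the hepatocyte bile acid carrier, -0.01. Of 15 ABC efflux pumps, ABCB4, which moves phosphatidylcholine into bile, was called higher in HIF-1α knockdown than in wild type (means 8.29 and 7.76, difference 0.53, SE 0.06, adjusted p = 0.00146). ABCG2, an exporter of sulfated compounds and urate, was called lower in HIF-2α knockdown than in HIF-1α knockdown (means 7.88 and 8.66, difference -0.78, SE 0.13, adjusted p = 0.00546). No pump was called between HIF-2α knockdown and wild type.

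Of 12 measured genes of thyroid hormone handling, 1 was called between HIF-2α knockdown and wild type, and its link to the SLCO4C1 values was not tested. DIO1, the deiodinase that makes active hormone from thyroxine in liver and kidney, was higher in HIF-2α knockdown than in wild type (means 10.32 and 9.48, difference 0.85, SE 0.10, adjusted p = 0.00197) and than in HIF-1α knockdown (difference 0.99, SE 0.10, adjusted p = 0.000207). The other 11 measured genes of that list were not called between HIF-2α knockdown and wild type. NCOA1, a nuclear receptor coactivator, was called higher in HIF-1α knockdown than in wild type (difference 0.30, SE 0.06, adjusted p = 0.0426), a call that held in 9 of 23 other settings.

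Of 20 measured genes of steroid sulfate and bile acid conjugation, 2 were called higher than wild type in each knockdown. The sulfotransferase SULT1C2 was higher than in wild type in HIF-1α knockdown (difference 0.79, SE 0.11, adjusted p = 0.00454) and in HIF-2α knockdown (0.94, SE 0.11, adjusted p = 0.00133). SULT2A1, which sulfates bile acids and DHEA, was higher in HIF-1α knockdown (0.57, SE 0.09, adjusted p = 0.0101). AKR1D1, a steroid reductase of bile acid synthesis, was higher in HIF-2α knockdown (0.45, SE 0.09, adjusted p = 0.0438), a call that held in 9 of 23 other settings. AKR1D1 was also higher in HIF-2α knockdown than in HIF-1α knockdown (0.80, SE 0.09, limma adjusted p = 0.000468). In each of the comparisons with wild type the other 18 genes of the list were not called. Among 9 genes of bilirubin and haem breakdown, GSTA1, a glutathione transferase that binds bilirubin, was called higher in HIF-1α knockdown than in wild type (1.09, SE 0.14, adjusted p = 0.00263).

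The calls of these companion genes kept their direction in all settings tried. Without the 3 arrays of raised floor, SLC51B, SULT1C2, SULT2A1 and GSTA1 were no longer called between HIF-1α knockdown and wild type, nor DIO1 between HIF-2α knockdown and wild type. That setting leaves 2 wild type arrays, and the log2 differences were 0.65 for SLC51B, 0.84 for SULT1C2, 0.52 for SULT2A1, 1.22 for GSTA1 and 0.74 for DIO1. ABCB4 in HIF-1α knockdown, SULT1C2 in HIF-2α knockdown, and SLC51B, ABCG2, DIO1 and AKR1D1 between the knockdowns were called in 23 of 23 other settings.

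**Figure D5:**
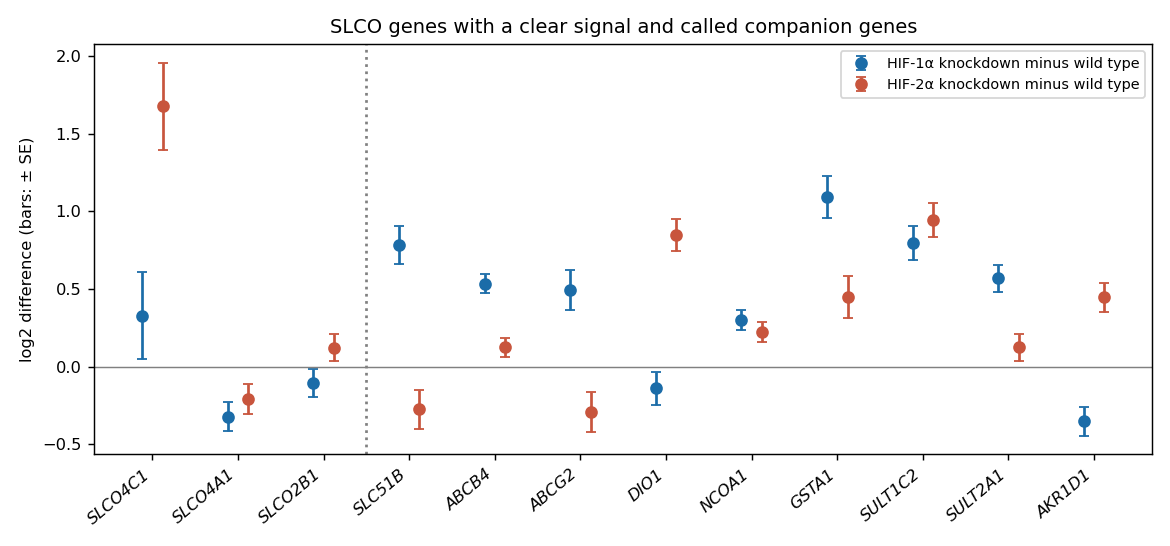
Log2 differences from wild type (vertical axis, bars ± SE) in HIF-1α knockdown and HIF-2α knockdown for the 3 SLCO genes with a clear signal, left of the dotted line, and for 9 genes of the companion lists that were called in at least 1 of the 3 comparisons (ABCG2 between the knockdowns only). In HIF-2α knockdown SLCO4C1 is at 1.68, the difference on which it was selected, and DIO1 is at 0.85. SULT1C2 lies above DIO1 there and is also higher than wild type in HIF-1α knockdown. SLC51B, ABCB4 and GSTA1 are high in HIF-1α knockdown (0.78, 0.53 and 1.09).

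The other lists held no calls in any of the 3 comparisons: 27 transcription factors known to act on SLCO genes, 22 genes of prostaglandin synthesis, breakdown and reception, and 21 scaffold, trafficking and glycosylation factors of membrane transporters. Their list medians lay between -0.06 and 0.09 in the 3 comparisons.

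Since SLCO4C1 marks the kidney proximal tubule, 15 measured markers of that segment were set beside it. Between HIF-2α knockdown and wild type 3 of 15 had a positive difference, the list median was -0.05, and the array means of the list were 7.08 to 7.20 in HIF-2α knockdown and 7.16 to 7.20 in wild type. CUBN, the endocytic receptor cubilin, was the one marker called, higher in HIF-2α knockdown than in wild type (means 7.43 and 7.07, difference 0.36, SE 0.05, adjusted p = 0.0049) and lower in HIF-1α knockdown than in wild type (difference -0.26, SE 0.05, adjusted p = 0.0289), a call that held in 13 of 22 other settings. Between the knockdowns CUBN was higher in HIF-2α knockdown (difference 0.62, SE 0.05, limma adjusted p = 2.82e-05), a call that held in 22 of 22 other settings. Levels differed within the list. LRP2 averaged 6.68 in HIF-2α knockdown and 6.72 in wild type, and the organic anion carrier SLC22A8 6.92 and 6.95. In the same groups MIOX averaged 7.70 and 7.83, and SLC13A3 9.27 and 9.25. The part of these markers in the SLCO4C1 values was not tested. Endothelial and cholangiocyte markers held no call. PDGFRB of the fibroblast list was lower in HIF-2α knockdown than in wild type (difference -0.40, adjusted p = 0.0109), where the list means were 7.13 to 7.25 in HIF-2α knockdown and 7.17 to 7.25 in wild type. CD14 of the leukocyte list was lower in HIF-2α knockdown than in HIF-1α knockdown (-0.39, adjusted p = 0.00899). The CUBN and PDGFRB calls against wild type in HIF-2α knockdown and the CD14 call were lost without the 3 arrays of raised floor, with log2 differences of 0.34, -0.42 and -0.37. The spheroids were grown from the HepG2 line, so the value of a marker gene is not a count of cells of that type.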

How the data were processed

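Expression was read on 12 Affymetrix arrays of HepG2 spheroids, 4 per genotype. The authors deposited log2 values in 1 table of 32321 probe sets; the base is inferred from the range, 5.93 to 15.1, and the sources used here do not state the background correction, summarization or normalization. Gene names came from the platform annotation and were updated through RefSeq (19128 of 19158 single-symbol probe sets by Entrez identifier, 4 by symbol, 26 kept as given), and the brightest probe set stood for each of 18404 genes. The test was that of limma 3.58.1 (R 4.3.3) (1 mean per group, eBayes), with Benjamini-Hochberg adjustment over all genes within a comparison; called means an adjusted p below 0.05. Depth does not apply to arrays; their number limits the precision, and a p-value reflects only how far these arrays spread. The test was checked on simulated data.

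The members and the 15 gene lists were chosen with earlier results of these data known. All members, HIF1A and EPAS1, up to 4 called genes per list and genes a statement on markers needs are named. So are the 5 most alike and 3 most opposite genes of a called member. SLC51A, SLC10A1, SLC13A3 and MIOX, the SLCO4C1 neighbours and SLCO4A1-AS1 were added after their values were seen. Other settings were another normalization, probe set rule, filter, variance model, set of arrays, array weights and a replicate block; the array floor as a covariate was added after seeing the data.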

Additional observations from a re-analysis of the deposited data

Results flagged for a closer look

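In 30 groups of 4 arrays (10 members in 3 genotypes), 2 held an array far from the other 3, where chance gives about 1 group in 20. Both concern SLCO1B3. In HIF-2α knockdown, replicate 2 was the highest at 7.15, with the other 3 arrays between 6.58 and 6.61, so that 0.940 of the range lay in the gap. The same array stood apart on the first principal component and held the highest SLCO4C1 value, 10.64. In HIF-1α knockdown, replicate 3 was the highest at 6.45, with the others between 6.37 and 6.38, a gap of 0.846 of the range. That group spans a narrow range close to the array floor, and all its values lay below those of the other groups.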

How the results depend on the processing

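Of 669 recomputed member differences, 661 kept their side of the threshold, 5 lost a call and 3 gained one; 56 changed sign, each with intervals holding 0 before and after. Of the 10 members, the count called between HIF-1α knockdown and wild type went to 2 with array weights (SLCO1B3 and SLCO4A1) and to 1 with the replicate block (SLCO4A1), and was 0 to 0 with 1 array left out. In the comparisons with HIF-2α knockdown the count holds SLCO4C1 alone, on which the family was selected, and supports nothing. Between HIF-2α knockdown and wild type it was 0 without the 3 arrays of raised floor, and 0 to 1 with 1 array left out (0 without wild type replicate 4). Between HIF-2α knockdown and HIF-1α knockdown it was 0 with an intensity trend and robust eBayes, and 0 to 1 with 1 array left out (0 without HIF-1α knockdown replicate 3 or 4). A filter that removed genes with a mean below the median of all genes left SLCO2B1, SLCO4A1 and SLCO4C1 to be tested. The causes were not tested.

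Counts over all genes moved more. From 177 between HIF-1α knockdown and wild type they went to 85 (67 higher, 18 lower) with median centring, 288 with the trend, 396 with only the 8 arrays compared, 605 with array weights, 22 without the arrays of raised floor (8 higher, 14 lower) and 50 to 483 with 1 array left out, lowest without HIF-1α knockdown replicate 3 and highest without wild type replicate 3. From 145 between HIF-2α knockdown and wild type (88 higher, 57 lower) they went to 404 with quantile normalization (141 higher, 263 lower), 72 with centring (34 higher, 38 lower), 285, 64 and 37 with the trend, the 8 arrays and no arrays of raised floor, 232 with the floor as covariate, and 61 to 219 with 1 array left out, lowest without wild type replicate 4 and highest without wild type replicate 3. From 509 between the knockdowns they went to 888 with quantile normalization, 337 with centring, 980 with array weights, 259 without the arrays of raised floor, and 211 to 618 with 1 array left out, lowest without HIF-1α knockdown replicate 3 and highest without HIF-2α knockdown replicate 1. With the replicate block the 3 counts were 234, 202 and 562. Same-numbered arrays of different groups had correlations of deviations from -0.17 to 0.64, over 0.1 in 5 of 12 pairs, so the numbers were not taken to pair the arrays.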
